A study of Mus musculus with 6 samples.

Results

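The genes described here are 32 transcripts tied to p53, the transcription factor encoded by Trp53. They were chosen by symbol: p53 targets that act in cell cycle arrest, DNA repair, metabolism and death receptor signalling, without the BCL2 family, plus Trp53 itself and Mdm4. All 32 had a row in both deposited tables, out of 47069 shared rows with an Ensembl gene ID. RNA sequencing had been done on 6 mouse libraries of regulatory T cells (Tregs), CD4 T cells defined by the transcription factor Foxp3. All mice carried a Cre recombinase expressed from Foxp3 (Foxp3Cre) and at least 1 floxed allele of Noc4l, a gene named for a yeast factor of small ribosomal subunit assembly. The libraries labelled Het came from Foxp3Cre Noc4l+/fl mice and those labelled cKO from Foxp3Cre Noc4l fl/fl mice, so the Het cells also carried Cre and a floxed allele. Tregs were sorted from lymph node and spleen as CD4+GFP+CD62Lhigh cells, and Dynabeads were then used to activate them for either 48 h (1 library per genotype) or 72 h (2 libraries per genotype). The labels give neither the age nor the number of mice, and nothing in them says that replicates were separate animals or pools. The p-values below therefore measure only the spread between these libraries, which may be technical.

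p53 is kept low in unstressed cells by Mdm2, a ubiquitin ligase that marks it for degradation, and by its relative Mdm4, which masks the activation domain of p53. DNA damage blocks that control through kinases, and disturbed ribosome assembly blocks it through free ribosomal proteins that bind Mdm2. Stabilised p53 then switches on genes that stop the cell cycle, repair DNA, adjust metabolism and nucleotide supply, or prepare cell death, and it also switches on Mdm2, which closes a feedback loop. Much of this control acts on the p53 protein, which was not measured here, and not on Trp53 mRNA.

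Levels are given as the authors' FPKM (fragments scaled to gene length and library size), in which genes can be compared per length. The first deposited table held Het replicate 1 and cKO replicate 2 at both times, and the second held Het replicate 3 and cKO replicate 4 at 72 h. Estimated depth was 16.5 to 28.8 M fragments per library. The 6 Treg markers, Foxp3, Cd4, Il2ra, Ctla4, Ikzf2 and Tnfrsf18, summed to 2562 to 3271 FPKM, with none at 0. Noc4l went against its label: its 48 h value was 99.1 FPKM in the Het library and 124 in the other, and its 72 h values were 48.8 against 81.7 in the first pair and 40.8 against 58.1 in the second. The labels do not say which exons are floxed, and a value for the whole gene does not show the deleted part alone. Genotypes below are therefore those of the labels, and every direction is that of libraries labelled cKO against libraries labelled Het. Transcripts of other cells differed between libraries too. The 10 neutrophil and myeloid markers, led by S100a9 and S100a8, summed to 339 FPKM in cKO 2 at 48 h and 272 in cKO 2 at 72 h, and to at most 0.756 in the other 4 libraries, where S100a9 was listed at 0 in 3. The 7 B cell markers, led by Cd79b and Cd79a, summed to 88.1 in cKO 2 at 72 h and to 8.81 to 25.5 elsewhere. The 6 CD8 T and NK cell markers, led by Nkg7 and Gzma, summed to 75.1 in Het 1 against 283 in cKO 2, and to 14.2 in Het 3 against 119 in cKO 4. The 7 erythroid and platelet markers, led by Hba-a1 and Hbb-bs, summed to 0.623 to 30.5.

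p53 binds DNA at pairs of a 10-base element, and the promoters nearest to that consensus are shown because they belong to members with both high and flat values below. RefSeq promoter windows (build GRCm38.p6, 250 bases before to 50 bases after a transcript start) were at hand for 25 of the 32 members, 35 windows in all. Both strands were searched for the p53 consensus by name, a pair of 10-base elements separated by 0 to 13 bases. Cdkn1a, which encodes the CDK inhibitor p21, had 1 such pair with 0 mismatches, and Ccng1, which encodes cyclin G1, had 1 with 1 mismatch. The Cdkn1a pair, with a 12-base spacer, lay at the first start of the gene, and the best site at its later start had 5 mismatches. The second element of that pair also opens a pair with no spacer and 1 mismatch. The 250 bases before the Cdkn1a and Ccng1 starts with the best pairs are printed 5′ to 3′ on the gene's strand, with the elements of those pairs in capitals.
Cdkn1a, chr17:29090729-29090978, plus strand: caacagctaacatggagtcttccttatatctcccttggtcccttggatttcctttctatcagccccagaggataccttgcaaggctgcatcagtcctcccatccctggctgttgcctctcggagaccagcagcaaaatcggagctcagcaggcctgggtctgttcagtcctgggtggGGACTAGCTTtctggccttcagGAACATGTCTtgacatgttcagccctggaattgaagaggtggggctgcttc
Ccng1, chr11:40755287-40755536, minus strand: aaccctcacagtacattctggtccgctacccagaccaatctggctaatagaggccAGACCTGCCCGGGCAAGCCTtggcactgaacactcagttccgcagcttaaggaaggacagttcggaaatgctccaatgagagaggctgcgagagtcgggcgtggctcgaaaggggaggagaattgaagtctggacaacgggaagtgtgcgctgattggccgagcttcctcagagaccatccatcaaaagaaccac
A further 4 members had a pair with at most 2 mismatches, printed as the site alone.
Polk, at an internal start, chr13:96519398-96519418, minus strand, 1 mismatch: GAACTAGCCTcAAACTTATTC
Aen, chr7:78895937-78895963, plus strand, 2 mismatches: GGGCTTGTCCgggcaagGAGCTTCCGC
Gadd45a, chr6:67037438-67037463, minus strand, 2 mismatches: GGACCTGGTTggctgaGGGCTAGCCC
Sesn1, at its second start, chr10:41887253-41887275, plus strand, 2 mismatches: GCGCTTGGCCttcAAGCTTGTTT
The search is loose when mismatches are allowed. With up to 3 mismatches, 48.6% of the member windows and 45.1% of all 32851 windows held a site. With up to 2 the shares were 20% and 10.1%, and with up to 1 they were 8.57% and 1.09%. These matches describe letters in a short window. They do not show binding, and the strongest members below, Ak1, Psrc1 and Phlda3, had best sites with 3, 3 and 4 mismatches.

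At 72 h, most of the p53 target genes were higher in both libraries labelled cKO than in both labelled Het. Of the 32, 30 reached the mean of 1 FPKM needed for the test, and 27 of these had a positive and 3 a negative genotype difference. Of all 12488 genes tested, 7619 were higher and 4869 lower. The median difference of the 30 was 0.85 on the log2(FPKM + 1) scale, against 0.08 over all 12488 genes tested. No member and no gene (0%) passed an adjusted p of 0.05 with limma, and the smallest adjusted p was 0.106. At an unadjusted p under 0.05, 21 members were higher and 0 lower, against 10.3% and 6.99% of all genes. At least 1.5-fold on the FPKM + 1 scale in both same-table pairs, 16 members were higher and 0 lower, against 4.64% and 3.02% of all genes. On plain FPKM ratios Tnfrsf10b and Polk also reached 1.5 in both pairs. In 22 members both cKO libraries lay above both Het libraries and in 2 below, against 24.9% and 13.8% of all genes. With every expressed gene tested and no minimum level, 2 members, Phlda3 and Psrc1, passed at an adjusted p of 0.0466. Over all alternatives run their adjusted p ranged from 0.0466 to 0.192. As these are bulk samples, fewer cells of a type and less RNA per cell cannot be told apart.

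**Figure D1:**
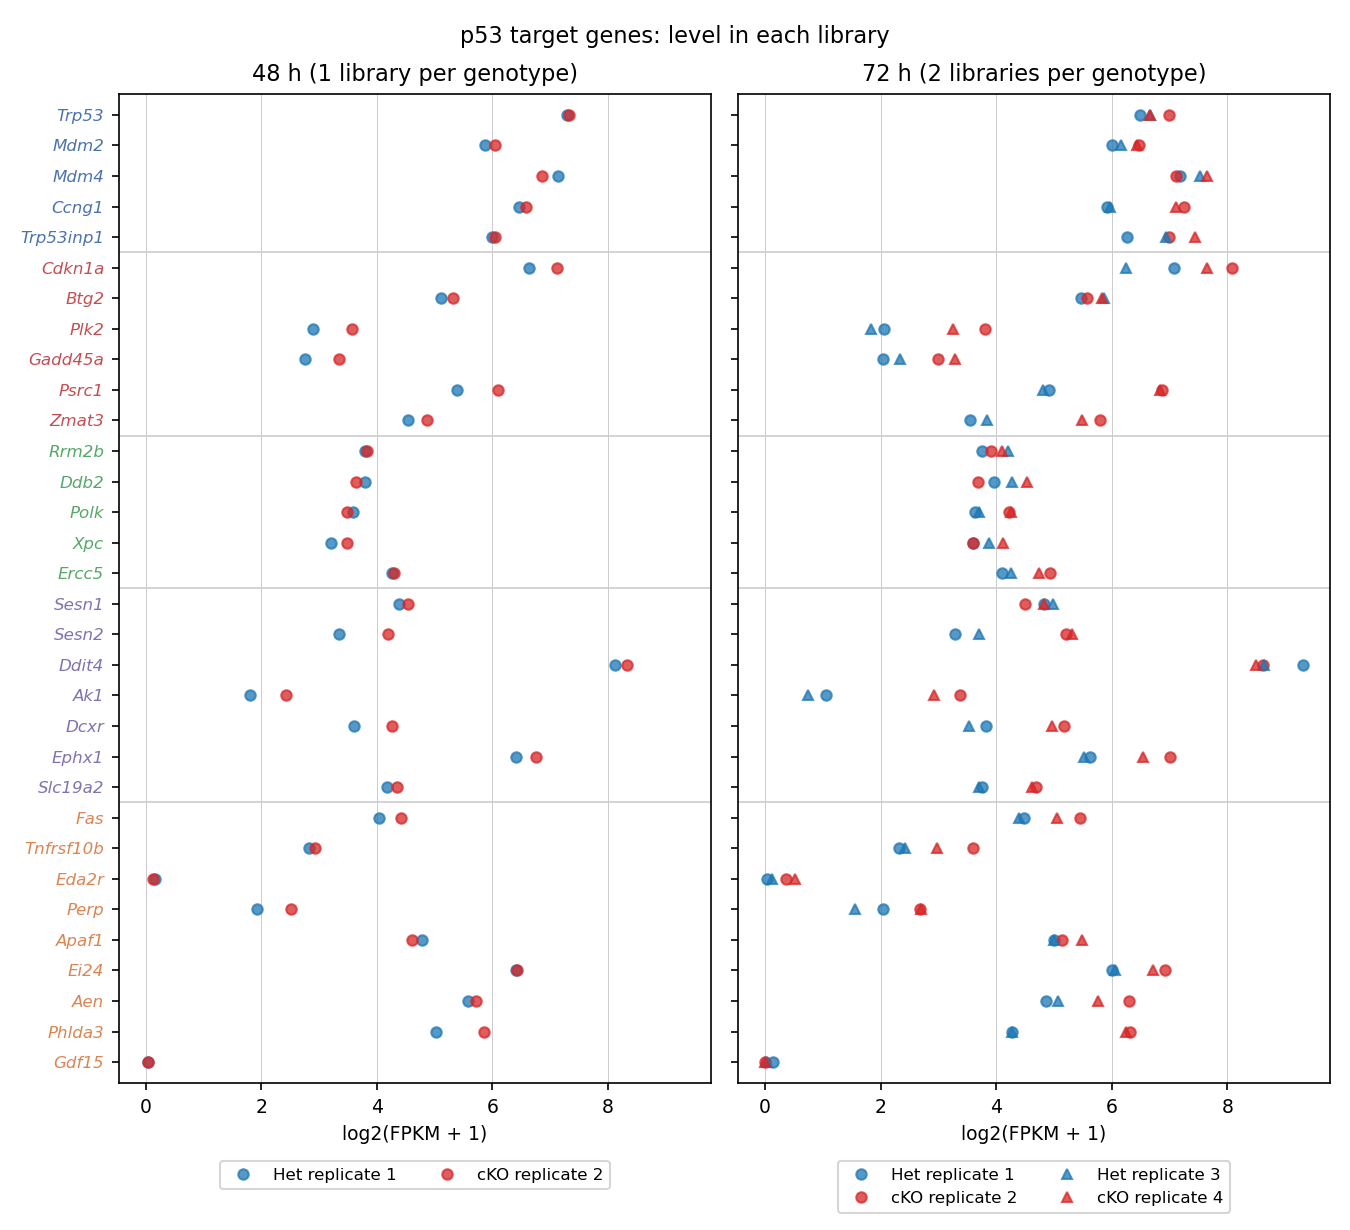
Level of each of the 32 genes in each library as log2(FPKM + 1) on the x axis, at 48 h (left, 1 library per genotype) and 72 h (right, 2 per genotype); blue is Het, red is cKO, circles are replicates 1 and 2 and triangles replicates 3 and 4, and gene names are coloured by role. At 72 h the red symbols lie right of both blue ones for 22 of the 30 tested genes.

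The plot of levels by library shows how far apart the members sit. Ddit4 had the highest mean at 72 h (446 FPKM), followed by Cdkn1a (170), Mdm4 (166), Trp53inp1 (124), Trp53 (104) and Ccng1 (103). The libraries of these neighbours in the order below Ddit4 overlapped. Eda2r and Gdf15, at means of 0.208 and 0.0315 FPKM, were at the floor, and Perp and Ak1 were the lowest of the 30 tested, at 4.0 and 4.43.

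Among p53 and its regulators, 3 of 5 genes had groups that did not overlap, and 1 differed by more than 1 on the log2 scale. Trp53 (ENSMUSG00000059552) had 89.0 FPKM in Het 1 and 126 in cKO 2, and at 100.6 in Het 3 and 100.4 in cKO 4. Only the first pair showed a difference, and the groups overlapped. The fitted difference was 0.25 ± 0.18 (log2, SE), with a 95% interval from -0.24 to 0.74 and an adjusted p of 0.50. Mdm4 was at 144 and 184 in Het against 137 and 199 in cKO, with opposite directions in the 2 pairs and a difference of 0.02. Mdm2, both a target and the main inhibitor of p53, was at 63.0 and 70.8 in Het against 87.3 and 85.6 in cKO. The cKO libraries lay above, by 0.37 ± 0.13 at an adjusted p of 0.289. Trp53inp1, a stress protein that binds and modulates p53, was at 75.7 and 121 in Het and 126 and 173 in cKO, so that Het 3 nearly reached cKO 2. Ccng1 (ENSMUSG00000020326), which brings a phosphatase to Mdm2 and whose promoter is printed above, stood apart from the other 4. It was at 59.7 and 61.7 FPKM in the Het libraries and 152 and 138 in cKO. The Het libraries were alike, the cKO libraries were 2.54 and 2.23 times as high, and the difference was 1.24 ± 0.13 (adjusted p 0.106).

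The arrest and growth control genes had the highest class median, 1.40, and 5 of the 6 had an unadjusted p under 0.05. Cdkn1a (ENSMUSG00000023067), through which p53 blocks cyclin-dependent kinases, was at 134 and 74.9 FPKM in the Het libraries and 271 and 201 in cKO. The levels differed between the tables in both genotypes, yet each cKO library was well above its Het partner, by 2.02 and 2.68 times, and the difference was 1.21 ± 0.16 (adjusted p 0.121). Psrc1 (ENSMUSG00000068744), a microtubule-binding protein of the mitotic spindle, was at 29.1 and 27.0 in Het and 117 and 113 in cKO. Its replicates nearly coincided, at 4.01 and 4.18 times the Het level, with a difference of 2.0 ± 0.12 (adjusted p 0.106). Zmat3 (ENSMUSG00000027663), an RNA-binding zinc finger protein, was at 10.6 and 13.3 in Het and 54.6 and 44.0 in cKO, a difference of 1.96 ± 0.20. Plk2, a polo-like kinase, was at 3.15 and 2.58 in Het and 12.96 and 8.57 in cKO, a difference of 1.58 ± 0.18. In both genes the second pair differed by less than the first, 3.31 against 5.13 times for Zmat3 and 3.32 against 4.11 times for Plk2. Gadd45a, a stress-induced growth arrest protein, was at 3.12 and 4.03 in Het and 6.95 and 8.77 in cKO, a difference of 0.95 ± 0.16. Btg2, an antiproliferative cofactor of mRNA decay, was the exception, at 43.5 and 57.1 in Het and 46.3 and 55.9 in cKO. Its groups overlapped and the difference was 0.03, with a 95% interval from -0.32 to 0.38.

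The DNA repair and nucleotide supply genes had the lowest class median, 0.12. Polk, a polymerase that copies past damaged bases, stood at 11.4 and 12.02 FPKM in the Het libraries and 17.7 and 18.1 in cKO. Ercc5, the endonuclease that cuts on the 3′ side of a lesion in nucleotide excision repair, was at 16.2 and 18.1 in Het and 29.5 and 25.9 in cKO. In both genes the groups were apart, with differences of 0.57 ± 0.13 and 0.66 ± 0.15. The other 3 overlapped between genotypes. Xpc and Ddb2, which recognise damage in the same pathway, were at 11.1 and 13.8 against 11.1 and 16.4, and at 14.7 and 18.3 against 11.9 and 22.2. Ddb2 pointed in opposite directions in the 2 pairs. Rrm2b, the p53-inducible subunit of ribonucleotide reductase, was at 12.5 and 17.5 in Het and 14.0 and 16.1 in cKO. The 95% intervals of the 3 differences ran from -0.29 to 0.53 for Xpc, from -0.54 to 0.52 for Ddb2 and from -0.39 to 0.43 for Rrm2b, all below the log2 difference of 1 that 11 other members reached.

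The metabolism and stress genes were split: 5 were higher, and the 2 whose libraries labelled cKO both lay below Het also belonged here. Ak1 (ENSMUSG00000026817), an adenylate kinase that balances adenine nucleotides, had the largest difference of all members. It was at 1.08 and 0.672 FPKM in the Het libraries and 9.35 and 6.62 in cKO, 8.67 and 9.85 times the Het level, and 2.25 ± 0.19 on the log2(FPKM + 1) scale (adjusted p 0.106). Sesn2 (ENSMUSG00000028893), a sestrin that restrains mTORC1 and that also belongs to the integrated stress response, was at 8.72 and 12 in Het and 36.0 and 38.7 in cKO, a difference of 1.77 ± 0.15. Its relative Sesn1, which has the near match to the p53 element printed above, was at 27.3 and 30.8 in Het and 21.6 and 27.3 in cKO. The 2 sestrins thus pointed in opposite directions, although Sesn1 differed by only -0.25 ± 0.13 (adjusted p 0.400). Dcxr, a reductase of sugars and carbonyls, was at 13.1 and 10.52 in Het and 35.0 and 30.4 in cKO. Ephx1, the microsomal epoxide hydrolase, was at 48.1 and 44.7 in Het and 128 and 92.1 in cKO. Slc19a2, a thiamine transporter, was at 12.6 and 11.99 in Het and 24.8 and 23.5 in cKO. In all 3 genes both cKO libraries lay above both Het libraries, with differences of 1.40 ± 0.13, 1.21 ± 0.15 and 0.92 ± 0.13. Ddit4, an mTORC1 inhibitor induced by stress and glucocorticoids, was at 632 and 398 in Het and 391 and 362 in cKO. Het 1 was far above the other 3 libraries, and the difference was -0.41 ± 0.18 (adjusted p 0.344).

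In the death receptor and apoptosis class all 7 tested genes had both cKO libraries above both Het libraries, and the class median was 0.89. Phlda3 (ENSMUSG00000041801), a small pleckstrin homology protein that blocks Akt at the membrane, was at 18.4 FPKM in both Het libraries and at 78.2 and 74.6 in cKO. The pairs matched at 4.26 and 4.06 times, with a difference of 2.0 ± 0.12 (adjusted p 0.106). Aen, an apoptosis-enhancing nuclease, was at 28.2 and 32.4 in Het and 77.3 and 53.1 in cKO. Its difference of 1.06 ± 0.22 was larger in the first pair, 2.74 against 1.64 times. Fas, the death receptor by which activated T cells can be killed, was at 21.5 and 20.02 in Het and 42.5 and 32.3 in cKO. Tnfrsf10b, the mouse TRAIL receptor, was at 3.98 and 4.38 in Het and 11.1 and 6.90 in cKO. Both receptors were higher in every cKO library, by 0.81 ± 0.14 and 0.92 ± 0.24, and both by less in the second pair. Ei24, an endoplasmic reticulum protein of autophagy, was at 63.3 and 65.3 in Het and 120 and 104 in cKO. Perp, a tetraspan membrane protein, was at 3.12 and 1.95 in Het and 5.42 and 5.53 in cKO. Apaf1, the scaffold of the apoptosome, was at 30.9 in both Het libraries and at 34.3 and 44.0 in cKO, the smallest difference of the class at 0.32 ± 0.15 (adjusted p 0.364). Eda2r, a receptor of the TNF receptor superfamily, was near 0 throughout: 0.0210 and 0.0902 FPKM in Het and 0.294 and 0.427 in cKO, or 1 and 5 against 16 and 16 estimated fragments. Gdf15, a secreted stress cytokine and a common readout of p53 in other tissues, was at 0.0980 and 0.0281 in Het and listed at 0 in both cKO libraries, from 3, 1, 0 and 0 estimated fragments. No fold is given for these 2 genes.

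**Figure D2:**
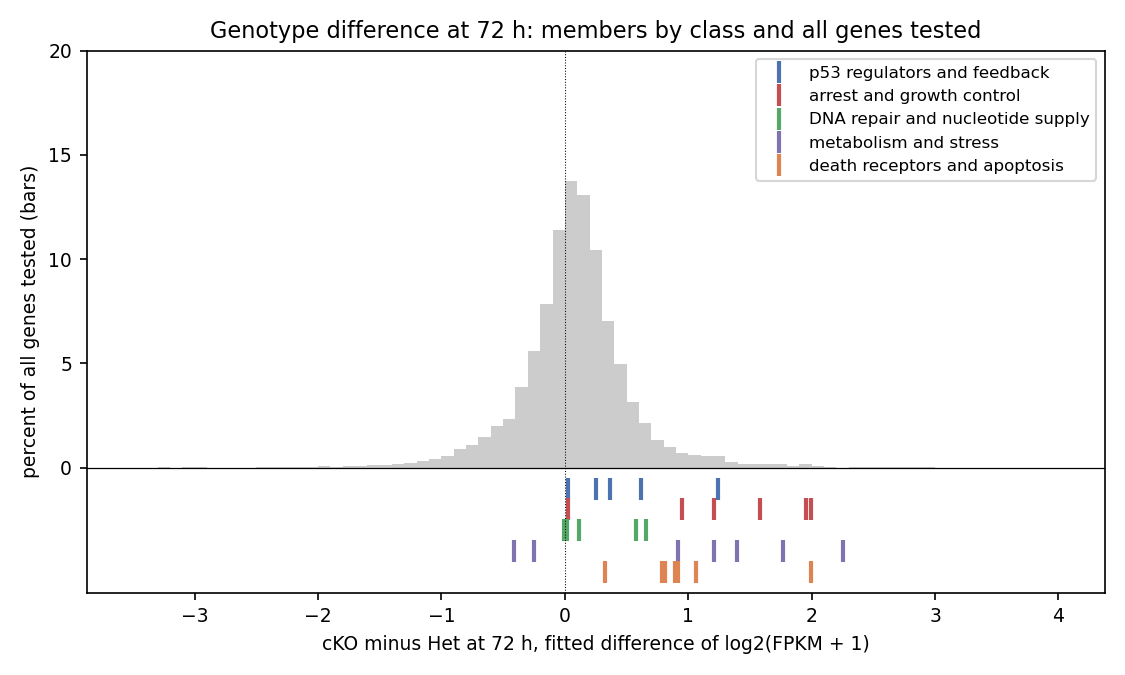
Genotype difference at 72 h, libraries labelled cKO minus Het, as the fitted difference of log2(FPKM + 1) on the x axis; grey bars give the percent of all 12488 genes tested in each bin and coloured ticks below 0 are the 30 tested members, 1 row per role. The arrest and the metabolism rows reach 2.0 and 2.25, while the repair row ends at 0.66.

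Set against the distribution of all genes, the class medians ran from 0.12 for repair and 0.37 for the regulators to 0.89 for death receptors and apoptosis, 1.21 for metabolism and 1.40 for arrest. The classes hold 5 to 7 tested genes each and were not tested against each other.

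The 2 pairs of 72 h libraries ranked the members alike. Across the 30 members the differences of the first and second pair correlated at r = 0.90 (Spearman 0.91), against r = 0.50 (0.46) across all 12488 genes. Genes of 1 pair share the same libraries, so these are descriptions with no p. The median was 0.92 in the first pair, where cKO 2 held the neutrophil and B cell transcripts, and 0.66 in the second. In that second pair the neutrophil and myeloid markers summed to 0.498 FPKM in Het and 0.496 in cKO and the B cell markers to 9.83 and 8.81. The summed CD8 T and NK cell markers stood higher with the cKO label in both pairs, mainly through Nkg7 (6.48 in Het 3, 89.1 in cKO 4) and Gzma (1.92 and 22.8). In those libraries Cd8a was at 1.01 and 2.24 and Ncr1 at 0.0556 and 0.123. Cd8b1 (4.69 in Het 3, 4.47 in cKO 4) and Klrb1c (0.0851 and 0) went the other way there. In the first pair Cd8a was at 20.3 in Het 1 and 39.0 in cKO 2. The part of these markers in the differences of the p53 target genes was not tested.

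**Figure D3:**
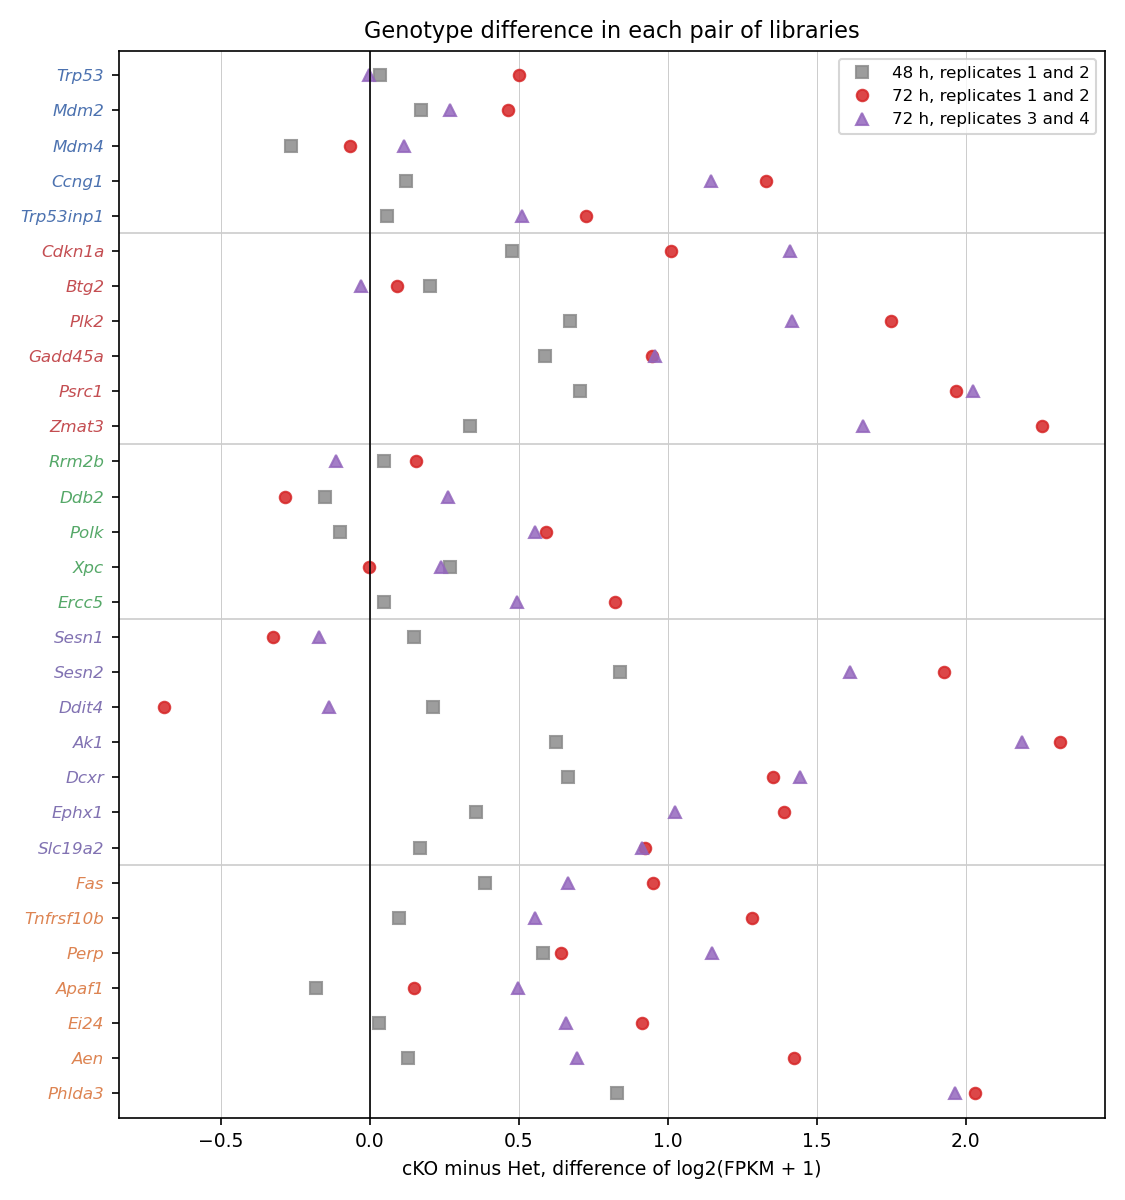
Difference of log2(FPKM + 1), library labelled cKO minus library labelled Het of the same table, on the x axis for each of the 30 tested members (rows, names coloured by role); grey squares are the 48 h pair, red circles the first 72 h pair (replicates 1 and 2) and purple triangles the second (replicates 3 and 4). For Psrc1, Phlda3, Slc19a2 and Gadd45a the 72 h symbols nearly coincide, for Btg2, Rrm2b, Ddb2 and Mdm4 they lie on either side of 0, and the 48 h symbol of every member with a 72 h difference of at least 1 lies left of both. The members of that last set were chosen by their 72 h values, which favours that order.

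At 48 h, with 1 library per genotype and so no test, the same direction was seen at a smaller size. The cKO library was higher in 26 of 30 members and lower in 4, with a median of 0.19 against -0.00 over 12064 genes. Of these genes 5971 were higher. At least 1.5-fold on the FPKM + 1 scale, 7 members were higher and 0 lower, against 3.14% and 1.87% of all genes. These 7 were Sesn2 (9.15 in Het, 17.2 in cKO), Phlda3 (31.5, 56.7), Psrc1 (40.8, 67.2), Plk2 (6.47, 10.9), Dcxr (11.1, 18.2), Ak1 (2.49, 4.38) and Gadd45a (5.77, 9.18). Perp (2.82, 4.72) was just below that threshold, at 0.58 on the log2(FPKM + 1) scale, although its plain FPKM ratio was 1.68. Cdkn1a was at 98.2 and 137, Fas at 15.4 and 20.4, Zmat3 at 22.1 and 28.2 and Ephx1 at 83.7 and 107. Several genes with a large 72 h difference stood close together at 48 h: Ccng1 at 87.3 and 95.1, Aen at 46.8 and 51.3, Ei24 at 83.4 and 85.3 and Tnfrsf10b at 6.10 and 6.61. Trp53 was at 155 in Het and 159 in cKO, Mdm2 at 57.5 and 64.9 and Mdm4 at 139 and 115. The 48 h library labelled cKO held neutrophil transcripts (339 FPKM summed against 0.556 in Het), whose part was not tested. Across the 30 members, the 48 h and the 72 h differences correlated at r = 0.73 (Spearman 0.69). The value over all genes was not computed, so this is a description only. The libraries were separate, but Het 1 and cKO 2 carry the same replicate numbers at both times. cKO 2 held neutrophil transcripts at both times too.

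With both times in 1 model, 26 of 30 members had a higher and 4 a lower fitted level in cKO, with a median of 0.66 against 0.05 over 12394 genes. Of these genes 7304 were higher. No member and no gene (0%) passed an adjusted p of 0.05 with limma, the smallest for a member being 0.343. At an unadjusted p under 0.05, 20 members were higher and 0 lower, against 8.04% and 5.28% of all genes. The largest differences were those of Ak1 (1.71 ± 0.37), Phlda3 (1.61 ± 0.26), Psrc1 (1.57 ± 0.28) and Sesn2 (1.46 ± 0.22). This model shares its 72 h libraries with the comparison above. It treats all 6 libraries as separate, although Het 1 and cKO 2 carry the same replicate number at 48 h and 72 h and cKO 2 held neutrophil transcripts at both times. The labels do not say whether equal numbers mean the same cells.

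From 48 h to 72 h, within the first table, the median of the members lay near that of all genes in Het. In cKO the members were mostly higher. In the Het libraries 14 of 30 were higher and 16 lower at 72 h, with a median difference of -0.05. Of all genes 5715 of 12116 were higher there, with a median of -0.03. The larger differences in Het leaned to lower values. At least 1.5-fold on the FPKM + 1 scale, 1 member was higher and 8 lower, against 1369 and 1203 of the 12116 genes. In the libraries labelled cKO, 27 members were higher and 3 lower, with a median of 0.47. Of all genes 6737 of 12303 were higher there, with a median of 0.03. By the same fold, 12 members were higher and 0 lower in cKO, against 887 and 426 of the 12303 genes. Phlda3 stood at 31.5 FPKM at 48 h and 18.4 at 72 h in Het, and at 56.7 and 78.2 in cKO. Zmat3 stood at 22.1 and 10.6 in Het, and at 28.2 and 54.6 in cKO. Ccng1 stood at 87.3 and 59.7 in Het, and at 95.1 and 152 in cKO. For these 3 genes the later Het library was the lowest of the 4 in the table and the later cKO library the highest. Of the 11 members with a 72 h genotype difference of at least 1, 9 were lower at 72 h than at 48 h in Het and 11 were higher in cKO. The 11 were chosen by 72 h values that include these same Het 1 and cKO 2 libraries, which favours this pattern. Cdkn1a was 1 of the 2 that did not follow in Het, at 98.2 and 134, and Sesn2, at 9.15 and 8.72, hardly differed there. Dcxr, at 11.1 and 13.1, was the other.

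**Figure D4:**
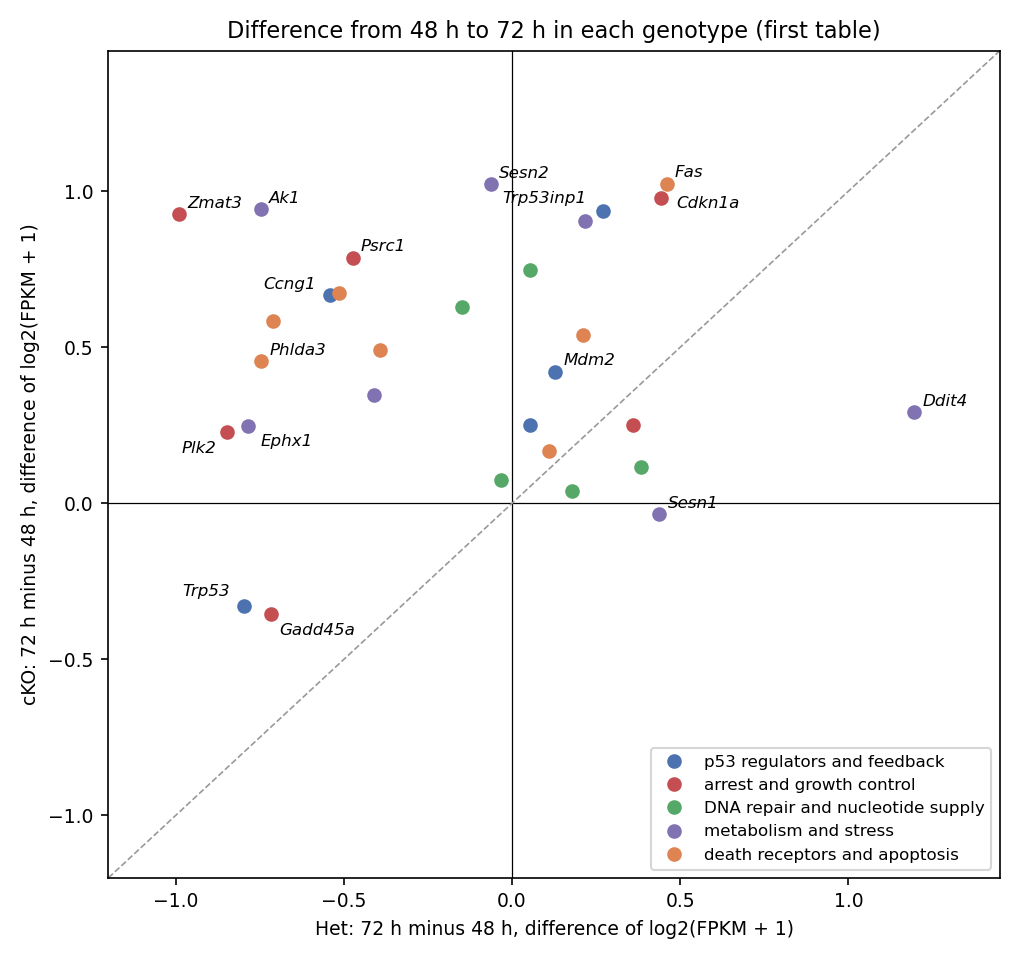
Difference between 72 h and 48 h, as log2(FPKM + 1), in the Het libraries (x axis) and the libraries labelled cKO (y axis) of the first table, 1 point per tested member coloured by role; the dashed line marks equal differences. Most points lie above the line, Zmat3, Ak1, Phlda3, Plk2 and Ephx1 in the upper left, while Trp53 and Gadd45a were lower at 72 h in both genotypes and Ddit4 lies to the right.

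Averaged over genotypes, 22 members were higher and 8 lower at 72 h, with a median of 0.14 against -0.00 over 12250 genes. Of these genes 6094 were higher. With limma, 2 genes (0.0163%), Cd8a and Tgm2, passed an adjusted p of 0.05, and 0 members did. At an unadjusted p under 0.05, 4 members were higher (Fas, Cdkn1a, Ddit4 and Trp53inp1) and 1 was lower (Trp53), against 5.19% and 2.97% of all genes. Trp53 mRNA itself stood at 155 FPKM at 48 h and 89.0 at 72 h in Het, and at 159 and 126 in cKO, a mean difference of -0.56 ± 0.20. Gadd45a was the other member lower at 72 h in both genotypes, from 5.77 to 3.12 in Het and from 9.18 to 6.95 in cKO. Ddit4 went from 276 to 632 in Het and from 319 to 391 in cKO. Markers of other cells differed with time as well. The CD8 T and NK cell markers summed to 28.5 FPKM at 48 h and 75.1 at 72 h in Het, and to 41.3 and 283 in cKO. The B cell markers summed to 9.51 and 14.1 in Het and to 25.5 and 88.1 in cKO. Their part in the differences of the members was not tested.

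The interaction of genotype and time asked whether the genotype difference itself differed between 48 h and 72 h. It was larger at 72 h in 25 of 30 members and smaller in 5, with a median of 0.64 against 0.09 over 12394 genes. Among all these genes it was larger in 7431. No member and no gene (0%) passed an adjusted p of 0.05, and the smallest for a member was 0.742. At an unadjusted p under 0.05, 12 members had a larger difference at 72 h and 0 a smaller one, against 3.43% and 2.28% of all genes. Psrc1 had an interaction of 1.29 ± 0.21, Phlda3 of 1.17 ± 0.21, Ak1 of 1.63 ± 0.31, Ccng1 of 1.12 ± 0.22 and Zmat3 of 1.62 ± 0.34. The model rests on 1 library per genotype at 48 h and leaves 1 residual degree of freedom, and the CD8 T and NK cell markers had a larger difference at 72 h as well (median 1.34 over the 4 tested), whose part was not tested.

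Genes around p53 that are no members were read from 4 further lists. For comparison, of all 12488 genes tested at 72 h 7619 were higher and 4869 lower, with a median of 0.08. Of 30 other p53 targets 25 were tested at 72 h, with 19 higher, 6 lower and a median of 0.29, and at an unadjusted p under 0.05 there were 10 higher and 2 lower, against 10.3% and 6.99% of all genes. Bbc3, the BH3-only protein PUMA, was at 31.6 and 50.8 FPKM in the Het libraries and 97.4 and 125 in cKO. Ptp4a3, a phosphatase, was at 51.0 and 50.6 against 130 and 102. Zfp365 (3.73 and 3.57 against 10.1 and 7.06) and Abhd4 (20.8 and 19.8 against 34.5 and 50.6) completed the 4 named by rule, and all 4 had non-overlapping groups. The 2 that were lower, Polh and Trp53i11, were picked after their values were seen, and differed by -0.54 ± 0.15 and -0.79 ± 0.19. Of 28 genes that act upstream of p53, such as damage kinases and nucleolar proteins, 27 were tested, with 18 higher, 9 lower and a median of 0.06. That was near the split and the median of all genes. At an unadjusted p under 0.05 there were 2 higher and 1 lower, against 10.3% and 6.99% of all genes. These 3 were also picked after their values were seen: Prkdc (0.46 ± 0.14) and Trp53bp1 (0.40 ± 0.12) higher and Ep300 (-0.48 ± 0.15) lower. None of these genes passed an adjusted p of 0.05.

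Sesn2 is also a gene of the integrated stress response, the programme that Atf4 drives, and the genes listed with it there differed in direction at 72 h. Of the 10 listed genes 9 were tested, 7 higher and 2 lower, with a median of 0.41, against 7619 higher and 4869 lower of all 12488 genes. Atf3 was at 0.911 and 0.588 FPKM in the Het libraries and 16.5 and 2.52 in cKO, and Cebpb at 4.16 and 8.15 against 11 and 35.0. Trib3, a pseudokinase induced by Atf4, went the other way, at 44.5 and 32.5 in Het and 10.4 and 5.93 in cKO, a difference of -2.14 ± 0.15. At 48 h, with 1 library per genotype, all 10 listed genes were higher in the cKO library, with a median of 0.50. Of all 12064 genes 5971 were higher there, with a median of -0.00. That cKO library also held the neutrophil transcripts. Trib3 was among the 10, at 15.0 in Het and 24.5 in cKO. A list of 18 genes known as repressed through p21 and the DREAM complex, mostly mitotic genes, lay opposite to Cdkn1a in direction. All 18 had a negative difference at 72 h, from -0.83 to -0.00, with a median of -0.56 (-0.67 in the first pair and -0.43 in the second), and 13 had an unadjusted p under 0.05, against 6.99% of all genes, while none reached a log2 difference of 1 or passed an adjusted p of 0.05. At 48 h, with 1 library per genotype, all 18 were also lower in the cKO library, with a median of -0.26. Of all 12064 genes 6093 were lower there, with a median of -0.00. The part of p21, and that of transcripts of other cells, in these differences was not tested.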

How the data were processed

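Per the labels' protocols, a SMART-Seq v4 low-input kit was used. The submitters' processing notes name Bowtie2 2.2.3, TopHat2 2.0.12, HTSeq 0.6.1 and the mouse build mm9. The role of each tool, the gene models and any use of strand in counting were not given in the sources used here. Overlapping or antisense genes may therefore share reads. The genotype was taken from each library's own label, since the extract protocol lists the same alleles for both. The authors deposited FPKM in 2 tables of 47427 and 47347 rows. Of 47347 shared rows, 47069 carried an Ensembl ID and 46488 of these matched a symbol. The 278 shared rows without an Ensembl ID were left out. The 581 IDs without a symbol stayed among the rows open to testing.

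The members and lists were chosen with earlier results of these data known, so no p is given for a list. Tests used log2(FPKM + 1), a scale that shrinks the differences of low genes, over every gene averaging 1 FPKM or more, with limma 3.58.1 in R 4.3.3 (moderated variances with a trend) and Benjamini-Hochberg adjustment over all genes tested. The table entered as a term, because each was scaled apart. Residual degrees of freedom were 1 for the genotype at 72 h, 1 for time, 1 for the interaction and 2 for both times. Depth was estimated from low values, 86.0% to 86.8% of which were whole fragment numbers to within 0.02 (3.88% to 4.43% with scrambled gene lengths). No count test was run. Fits were tested on simulated data. Besides the members, the rule named Noc4l, the Treg markers, the 2 most abundant markers of other cells, and of each pathway list at most 4 genes averaging 5 FPKM or more with a log2 difference of at least 1. Python 3.11.15, pandas 2.3.3, numpy 2.4.6 and matplotlib 3.10.9 were used. Alternatives covered pseudocounts of 0.1 and 5, filters, scalings, the table term, the variance trend and left-out libraries.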

Additional observations from a re-analysis of the deposited data

How the results depend on the processing

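Depth limited Eda2r and Gdf15, with at most 16 and 3 estimated fragments in a library. The median genotype difference of the members at 72 h, 0.85, was 0.59 with a pseudocount of 5 and 0.66 to 0.92 when each library was left out. A fit without 1 library rests on the intact same-table pair, so this range is that of the 2 pair medians. Replicates 3 and 4 alone, an alternative chosen after seeing the data, gave the same 0.66 and are no further check. With no filter on low values 8 genes passed at 72 h, 2 of them members. Over both times 0 genes passed, and 0 to 7 with a library left out: without Het 3 and without cKO 4 it was 7, all of them neutrophil genes. For time 2 genes passed; 0 passed with a pseudocount of 5, with no filter, with no variance trend and with the replicate block over all 6 libraries, and 4 after rescaling to TPM. In the time comparison the replicate number and the genotype are the same term. Het and cKO share no replicate number, so for the genotype at 72 h the libraries were paired only by table, through the table term. The cause of these shifts was not tested. Single members turned sign in 17 of 388 refits at 72 h (Btg2, Ddb2, Mdm4, Rrm2b, Trp53 and Xpc). The counts were 12 of 448 over both times, 7 of 358 for the interaction, 34 of 418 for time and 0 of 120 at 48 h. For time, 15 of 30 members turned sign, and not all had values near 0: Sesn2 was at 0.48 and Plk2 at -0.31. Zmat3, also among them, averaged -0.03 over time but differed by -0.99 in Het and 0.93 in cKO. The share of member windows with a p53 site, 48.6% at up to 3 mismatches, was 20% at up to 2, 8.57% at up to 1 and 2.86% at 0, and without a spacer 25.7% at up to 3 and 5.71% at up to 2.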
